A study of Mus musculus with 6 samples.

Results

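The 41 genes described here encode proteins of DNA replication and of mitosis, and were taken by symbol from a fixed list of names. All 41 were found among the 24394 gene symbols of the count table, 20 of them S phase genes and 21 mitosis genes, and all 41 passed the filter on low counts. A dividing cell copies its DNA in S phase and separates the copies in mitosis. Transcripts of the first group (the Mcm helicase, the enzymes that make deoxynucleotides, cyclin E) rise at the end of G1 under E2F factors, whereas those of the second (cyclin B, the mitotic kinases, spindle motors and checkpoint proteins) rise later, in G2, largely through promoters with a CHR element and CCAAT boxes. Most T cells in blood rest outside the cycle, and antigen or cytokines such as IL-15 can drive memory-like CD8+ cells back into it.

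RNA was sequenced from cells sorted by FACS as CD8+CD122+CD49dlow regulatory-like T cells (CD8+ TRLs), with 500 to 1000 cells lysed per sample. The mice were wild type, of C57BL/6NCrl background and 9 weeks old by the labels, and male by the series text; the methods instead name C57BL/6J mice. The groups were blood after sham surgery, blood 3 days after tMCAO (a transient block of the middle cerebral artery for 60 minutes) and brain 3 days after tMCAO, with 2 libraries each. The sources do not say whether a library came from 1 mouse or a pool, so p-values measure the spread between these libraries only, which may be technical.

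Counts on genes ran from 13793081 to 17149924 per library. In the brain libraries the sort markers went against the stated cell type. In CPM, the counts scaled to a common library size of 1e+06 by edgeR's TMM method, Cd8a was at 948 and 867 in sham blood, 795 and 1286 in tMCAO blood, with 2.3 and 2.19 in brain. Cd3e was at 7.0 and 5.39 in brain and Il2rb, which encodes CD122, at 4.51 and 6.21, against 454 to 932 and 160 to 679 over the blood libraries. The summed level of 16 T cell identity genes was 11634 to 16938 in the blood libraries and 91.6 and 69.6 in brain, and all 16 fell in brain. The summed level of 12 microglia genes was 188 to 266 in blood and 8966 and 19911 in brain, with P2ry12 at 583 and 1474 and Tmem119 at 215 and 406. That of 15 monocyte and macrophage genes was 2032 and 3380 in sham blood, 1203 and 1576 in tMCAO blood, with 47384 and 50614 in brain, with Csf1r at 1682 and 2362. B cell genes, 9 in all, summed to 1182 and 672 in sham blood, 30.5 and 87.7 in tMCAO blood, with 191 and 354 in brain. The neutrophil genes did not move together. S100a8 was at 99.1 and 82.2 in brain and under 1 CPM elsewhere, and Mmp8 was at 64.8 and 33.9 in brain. S100a9 was only at 1.57 and 5.02 CPM in brain, and Cxcr2 at 7.46 and 10.1 against 5.61 to 12.7 in blood. Ltf, Retnlg, Mpo and Elane were under 1 CPM in every library. Camp and the erythroid gene Hbb-bs had no counts in any library. The brain libraries are called by their label below, and the cell type that their cell cycle transcripts came from was not tested. In such bulk libraries, fewer cells of a type and less RNA per cell cannot be told apart.

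Promoter windows of 300 bases, from 250 before to 50 after the start, were matched in RefSeq (GRCm38.p6) for 34 of the 41 genes. Those without a window were Mcm4, Ccna2, Ccne2, Tpx2, Aurkb, Gins2 and Foxm1. An S phase pair and 3 mitosis windows are printed 5′ to 3′ on the gene's strand, because they belong to the pair of each class with the lowest log2 fold change in brain against sham blood (Cdc6 and Mcm6, Kif11 and Top2a) and to the mitosis gene Mki67, which did not pass the test. Capitals mark matches to TTTNNCGC (the E2F-type letters), TTTGAA or TTTAAA (the CHR element) and CCAAT, each searched on both strands, so that GCGNNAAA, TTCAAA and ATTGG are the same motifs read on the other strand. Matches to TTTNNCGC on opposite strands may overlap, as in the first capital run of Mcm6. The windows lie at chr1:128359656-128359955 (minus strand, Mcm6), chr11:98907901-98908200 (plus strand, Cdc6), chr19:37376132-37376431 (plus strand, Kif11), chr11:99024140-99024439 (minus strand, Top2a) and chr7:135716330-135716629 (minus strand, Mki67).
Mcm6: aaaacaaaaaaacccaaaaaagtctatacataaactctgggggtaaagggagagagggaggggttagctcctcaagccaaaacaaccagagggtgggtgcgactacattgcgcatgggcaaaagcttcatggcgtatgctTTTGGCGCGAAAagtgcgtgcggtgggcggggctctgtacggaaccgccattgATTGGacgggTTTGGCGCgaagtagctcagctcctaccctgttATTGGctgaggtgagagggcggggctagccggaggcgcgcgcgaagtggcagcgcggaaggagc
Cdc6: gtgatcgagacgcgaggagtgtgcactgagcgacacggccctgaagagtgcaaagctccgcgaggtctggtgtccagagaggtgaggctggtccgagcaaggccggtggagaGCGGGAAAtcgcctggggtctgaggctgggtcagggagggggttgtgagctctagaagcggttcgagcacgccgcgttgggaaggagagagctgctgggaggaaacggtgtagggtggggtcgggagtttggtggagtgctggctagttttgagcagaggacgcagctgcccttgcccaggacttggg
Kif11: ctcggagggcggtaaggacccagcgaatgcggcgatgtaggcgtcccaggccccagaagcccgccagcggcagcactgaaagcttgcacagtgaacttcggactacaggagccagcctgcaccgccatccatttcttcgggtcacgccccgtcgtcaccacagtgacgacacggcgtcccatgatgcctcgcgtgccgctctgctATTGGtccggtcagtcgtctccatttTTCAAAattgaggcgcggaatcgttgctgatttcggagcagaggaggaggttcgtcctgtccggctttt
Top2a: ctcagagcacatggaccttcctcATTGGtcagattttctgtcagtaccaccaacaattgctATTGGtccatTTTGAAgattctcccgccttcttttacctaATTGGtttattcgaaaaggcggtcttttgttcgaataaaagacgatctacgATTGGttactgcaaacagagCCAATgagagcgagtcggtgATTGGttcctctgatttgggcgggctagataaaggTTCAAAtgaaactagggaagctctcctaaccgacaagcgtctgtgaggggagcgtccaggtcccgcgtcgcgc
Mki67: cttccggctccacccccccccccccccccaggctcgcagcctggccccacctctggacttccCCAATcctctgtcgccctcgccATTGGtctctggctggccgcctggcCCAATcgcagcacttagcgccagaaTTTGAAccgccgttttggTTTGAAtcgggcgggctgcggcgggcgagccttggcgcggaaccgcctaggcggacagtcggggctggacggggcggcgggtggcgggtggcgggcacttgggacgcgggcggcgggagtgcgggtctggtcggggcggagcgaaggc

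The E2F-type letters were found in a larger share of S phase than of mitosis windows, and the CHR letters in a larger share of mitosis windows. TTTNNCGC was found in 47.4% of 19 S phase windows (17 genes, of which Mcm7 and Uhrf1 have an alternative start) and in 5.88% of 17 mitosis windows, against 5.17% of all 32851 promoter windows. TTTGAA was found in 10.5% of S phase windows, 70.6% of mitosis windows and 17.9% of all windows. With TTTAAA counted too, 88.2% of mitosis windows held a CHR match, against 36.8% of S phase windows and 27.6% of all. CCAAT was common in both classes, at 68.4% of S phase and 88.2% of mitosis windows, against 37.4% of all. Mcm6 carried 3 E2F-type matches and 2 CCAAT matches. Top2a carried 6 CCAAT matches and 2 of TTTGAA. Cdk1, which encodes the kinase that starts mitosis, was the only mitosis gene with TTTNNCGC in its window, with 2 matches beside 2 of TTTGAA. The motifs did not separate the genes that fell in brain from the rest: TTTNNCGC was found in 5 of the 10 S phase genes with a window that were called lower in brain than in sham blood and in 3 of the other 7, and a CHR match in 6 of 6 mitosis genes called lower and in 9 of the other 11. These matches describe letters in a window and were not tested as binding sites.

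Transcripts of both classes were present in all 6 libraries, with 10 to 9597 counts per gene and library. The 20 S phase genes summed to 1738 and 1214 CPM in sham blood, 1512 and 1628 in tMCAO blood, with 529 and 622 in brain. The 21 mitosis genes summed to 833 and 587 CPM in sham blood, 472 and 687 in tMCAO blood, with 242 and 380 in brain. The blood groups overlapped in both sums, and both brain libraries lay below all 4 blood libraries. Scaling on T cell genes instead raised nearly all genes in brain alike: 95.0% of all genes were then called higher than in sham blood and 95.4% higher than in tMCAO blood, and the direction of the members under it follows from the scaling. Under TMM 38 and 37 of the 41 genes lay below the median log2 fold change of all genes in these comparisons, and under T cell gene scaling 38 and 36. A change of scaling moves nearly all genes alike, so the likeness of these counts follows from the method and tests neither scaling. The sum of S phase genes over that of mitosis genes was 2.09 and 2.07 in sham blood, 3.21 and 2.37 in tMCAO blood, with 2.18 and 1.64 in brain. Of all counts on genes, the 41 took 0.210% to 0.298% in the blood libraries and 0.0607% and 0.0781% in brain.

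**Figure D1:**
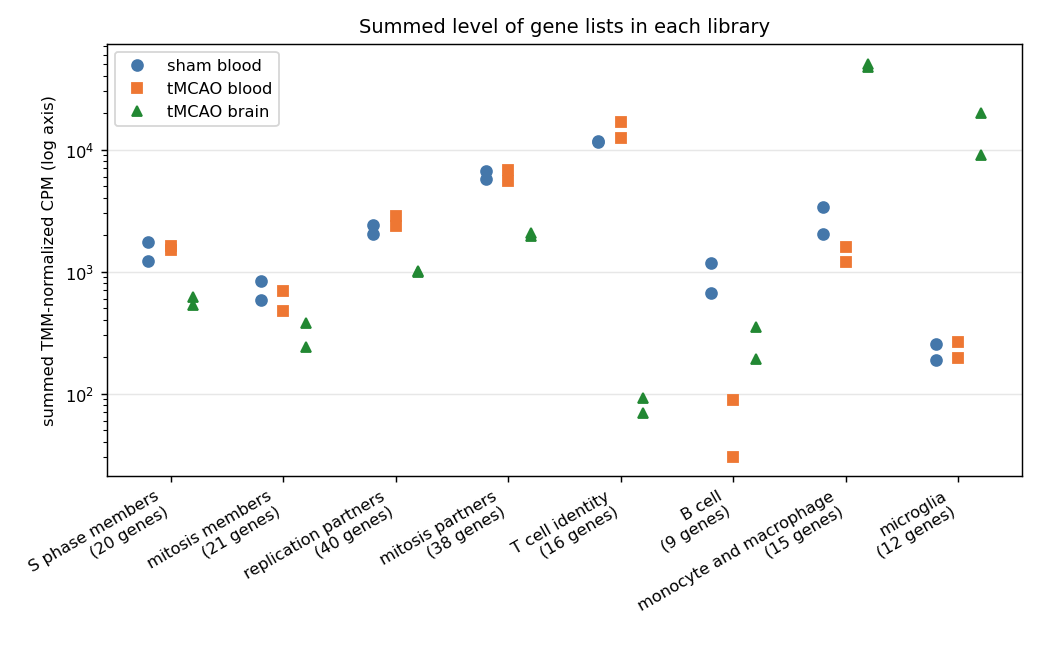
Summed TMM-normalized CPM (log axis) of each gene list in each of the 6 libraries, with 1 point per library; partners are further genes of replication and of mitosis. The S phase and mitosis genes were at 39.0% and 43.8% of their sham blood means in brain, where T cell identity genes were at 0.692% and microglia genes were 65.1-fold higher; scaling the libraries on T cell genes puts the brain levels of both classes, like those of nearly all genes, above those of blood.

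Levels between genes were compared in FPKM, which is per transcript length. Pcna, the sliding clamp that holds DNA polymerase on its template, had the highest mean FPKM of the S phase genes in all 3 groups, at 305 and 249 in sham blood, 229 and 455 in tMCAO blood, with 139 and 147 in brain. The helicase subunit Mcm6 came next in blood, at 107 and 84.2 FPKM in sham and 119 and 75.6 in tMCAO, and stood at 11.4 and 11.7 in brain. Next were Rrm2 in sham blood (64.5 and 28.5 FPKM) and Tyms in tMCAO blood (36.5 and 82.7). In brain, Pcna was followed by Chaf1b (9.30 and 16.7 FPKM) and Gins2 (14.2 and 11.2), whose libraries overlapped each other and those of Mcm6. Among the mitosis genes Birc5, which encodes survivin, a subunit of the chromosomal passenger complex, was highest in every group, at 112 and 75.8 FPKM in sham blood, 67.8 and 113 in tMCAO blood, with 19.6 and 35.8 in brain. Ccnb2 followed, at 79.1 and 57.8, 51.2 and 64.8, and 18 and 27.5 FPKM in the same order. After these came Ube2c, the ubiquitin-conjugating enzyme of the anaphase-promoting complex, in blood (44.3 and 38.1 FPKM in sham, 10.9 and 34.5 in tMCAO) and Cdk1 in brain (9.70 and 16.4). The libraries of Birc5 and Ccnb2 overlapped in sham blood and in brain. Mki67, the source of the Ki-67 proliferation antigen, was low per length, at 1.41 to 2.99 FPKM over the 6 libraries.

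The FPKM table cannot be used for every gene. Nusap1 and Foxm1 have no line of their own with values, and Mcm7, Ccne2, Cdc20 and Chaf1a are listed at an FPKM of 0 in 12 gene and library pairs where the count table gives 10 to 657 counts. Ccne2, for example, is listed at 0 FPKM in the second sham library with 657 counts, and Cdc20 at 0 in both tMCAO blood and both brain libraries with 96 to 262 counts. All comparisons below rest on counts.

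**Figure D2:**
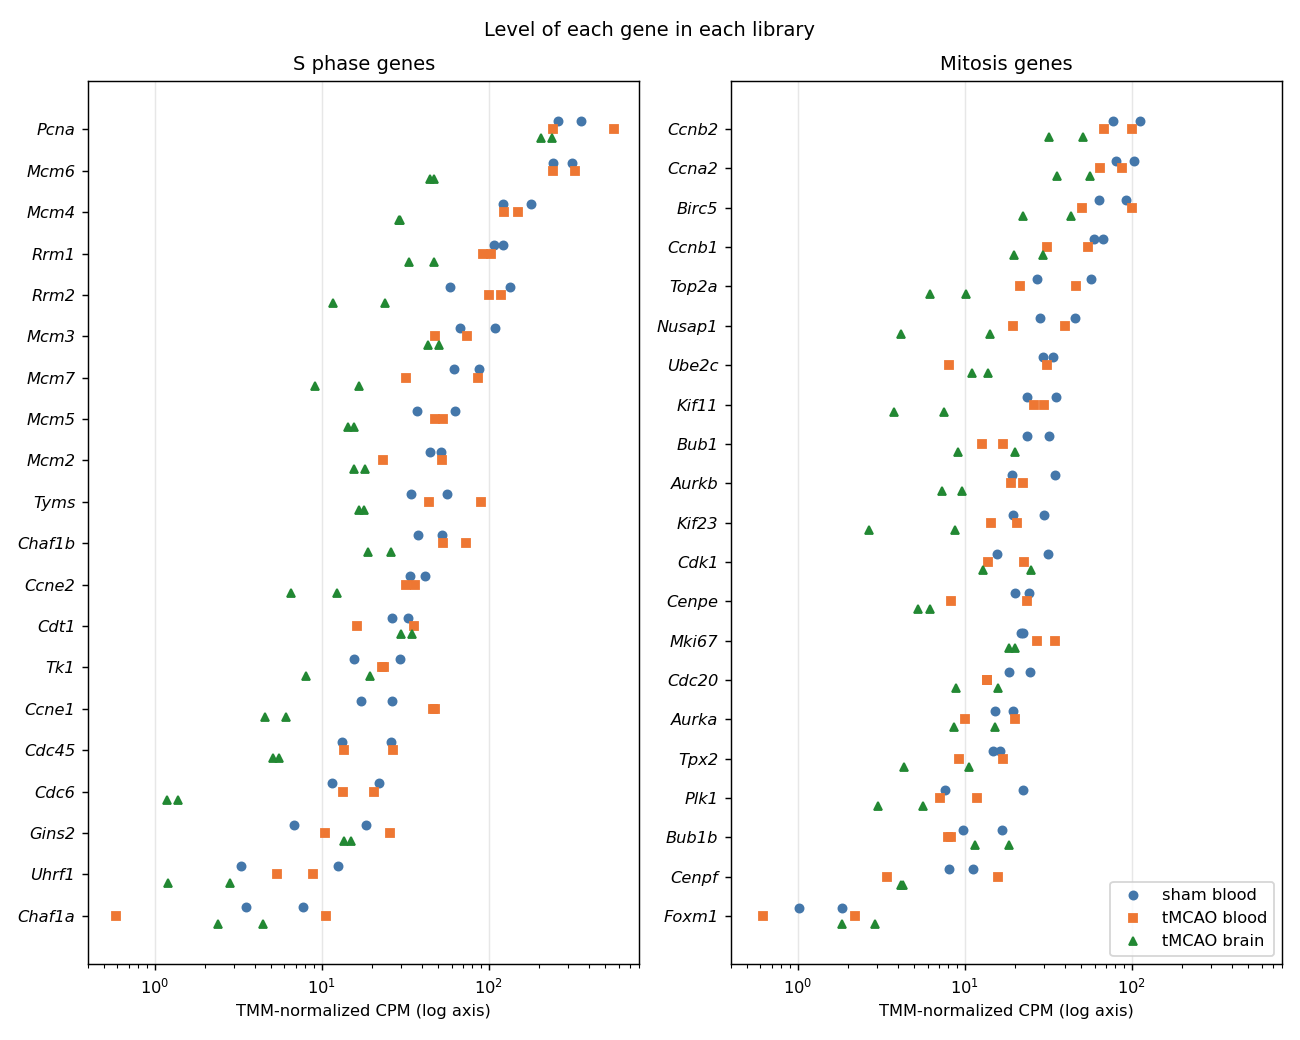
TMM-normalized CPM (log axis) of each of the 20 S phase and 21 mitosis genes, with 1 point per library and 2 libraries per group, ordered by the sham blood mean. The brain points lie left of both sham blood points for 16 S phase and 17 mitosis genes, and the tMCAO blood points overlap those of sham blood for 17 and 16; scaling on T cell genes reverses the order of brain and blood, as it does for nearly all genes.

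The first comparison was tMCAO blood with sham blood, which asks whether blood CD8+ TRLs changed their transcripts after stroke. None of the 41 genes passed the test (edgeR quasi-likelihood test, Benjamini-Hochberg adjusted p under 0.05 over 12424 genes and more than 2-fold), against 0.821% of all genes called lower and 0% called higher. At an unadjusted p under 0.05 there was 1 of 41, Ccne1, which was higher, against 1.96% of all genes higher and 5.85% lower, and DESeq2 and limma-voom called 0. The median log2 fold change was 0.02 for S phase genes, with 11 above 0 and 9 below, and -0.32 for mitosis genes, with 2 above 0 and 19 below, where the median of all genes was 0.03. The libraries of the groups overlapped for 33 of the 41 genes and for 64.5% of all genes.

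Ccne1, which encodes cyclin E1, the partner of CDK2 at entry into S phase, was at 26.4 and 17.2 CPM in sham blood and 47.5 and 46.6 in tMCAO blood. Both tMCAO libraries were above both sham libraries, with a log2 fold change of 1.11 ± 0.36 (SE, 2 libraries per group) that did not pass (edgeR adjusted p = 0.433). Its paralog Ccne2 was at 41.8 and 33.7 CPM in sham blood and 32.0 and 36.3 in tMCAO blood, with overlapping groups. Bub1, a kinase of the spindle checkpoint, was at 32.1 and 23.8 CPM in sham blood and 17.0 and 12.8 in tMCAO blood. It had the lowest log2 fold change of the 41, -0.91 ± 0.47 (edgeR adjusted p = 0.699). Its checkpoint partner Bub1b was at 16.7 and 9.80 CPM in sham blood and 7.97 and 8.30 in tMCAO blood, again without overlap and without passing (edgeR adjusted p = 0.755). Mki67 lay the other way, at 22.3 and 21.8 CPM in sham blood and 27.2 and 34.9 in tMCAO blood, a log2 difference of 0.49 ± 0.32 (edgeR adjusted p = 0.752).

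The replicates differed most in tMCAO blood, where 14 of the 41 genes and 33.2% of all genes differed by more than 2-fold between the libraries. In sham blood and in brain it was 7 of the 41 each, against 12.9% and 14.7% of all genes. The first sham library was above the second for 38 of the 41 genes, by a median of 1.45-fold, where 48.5% of all genes were higher in it. The second tMCAO blood library was above the first for 18 of 21 mitosis genes and for 7 of 20 S phase genes. Cenpe, a kinetochore motor, was at 8.28 and 23.7 CPM in the tMCAO blood libraries, and Ube2c at 8.12 and 31.3. The part of this spread in the blood comparison was not tested. The first sham library also had the higher B cell sum, 1182 against 672 CPM, and its part in the member levels was not tested.

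The second comparison was tMCAO brain with sham blood. Under TMM scaling 12 of 20 S phase genes and 7 of 21 mitosis genes were lower in brain and 0 were higher, against 11.8% of all genes called lower and 18.7% called higher; scaling on T cell genes called all 20 and 21 higher, with 95.0% of all genes. No member was higher at an unadjusted p under 0.05, against 25.4% of all genes, while 26 of 41 were lower, against 17.8%. Neither DESeq2 nor limma-voom called a member higher. The median log2 fold change was -1.62 for S phase genes and -1.19 for mitosis genes, where the median of all genes was 0.13. Both brain libraries were below both sham libraries for 16 S phase and 17 mitosis genes, and for 35.8% of all genes.

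The Mcm genes encode the 6 subunits of the ring helicase that opens DNA ahead of the fork, of which Mcm2, Mcm4, Mcm5, Mcm6 and Mcm7 fell. Mcm6, whose window with 3 E2F-type matches is printed above, was at 316 and 243 CPM in sham blood, 331 and 241 in tMCAO blood, with 47.4 and 44.8 in brain. It was 6.06-fold lower in brain than in sham blood, a log2 fold change of -2.60 ± 0.29 (edgeR adjusted p = 0.00116). Mcm4 was at 178 and 122 CPM in sham blood, 149 and 124 in tMCAO blood, with 29.6 and 29.1 in brain, 5.12-fold lower (edgeR adjusted p = 0.00171). For both genes the blood groups overlapped, and the brain libraries were close together and far below.

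Mcm7 was at 87.6 and 61.9 CPM in sham blood, 86.1 and 32.0 in tMCAO blood, with 9.12 and 16.8 in brain, 5.76-fold lower (edgeR adjusted p = 0.0149). Its exons are overlapped on the other strand by Ap4m1 and Cops6, and without a statement that counting used strand the reads cannot be told apart. Mcm5 was at 62.9 and 37.3 CPM in sham blood, 53.0 and 47.9 in tMCAO blood, with 15.7 and 14.3 in brain, 3.34-fold lower (edgeR adjusted p = 0.0102). Mcm2, at 51.7 and 44.6, 52.8 and 23.3, and 18.2 and 15.6 CPM in the same order, was 2.84-fold lower (edgeR adjusted p = 0.0366). Mcm3, the remaining subunit, changed least by its ratio, at 109 and 67.9, 73.8 and 48.0, and 43.2 and 50.3 CPM. Its brain libraries were below both sham libraries but overlapped those of tMCAO blood, and its log2 fold change of -0.92 ± 0.35 to sham blood did not pass (edgeR adjusted p = 0.0875). The subunits of the ring thus ranged from 1.89-fold lower (Mcm3) to 6.06-fold lower (Mcm6), and differences between subunits were not tested.

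Genes that load and start the helicase divided. Cdc6, which loads the Mcm ring at origins, was at 22.0 and 11.6 CPM in sham blood, 20.6 and 13.5 in tMCAO blood, with 1.38 and 1.19 in brain. Its log2 fold change of -3.70 ± 0.55 was the lowest of the 41 genes (13-fold lower, edgeR adjusted p = 0.00342), and the blood groups overlapped. Cdc45, a subunit of the active helicase, was at 26.0 and 13.2 CPM in sham blood, 13.6 and 26.7 in tMCAO blood, with 5.53 and 5.12 in brain, 3.68-fold lower (edgeR adjusted p = 0.034), with an exon that Ufd1 overlaps on the other strand. Cdt1, the loading partner of Cdc6, instead ran from 16.2 to 35.7 CPM over all 6 libraries, with brain at 34.6 and 29.9 and a log2 difference to sham blood of 0.12 ± 0.42. Gins2, part of the same active helicase as Cdc45, also has an exon overlapped on the other strand, by Gse1. It was at 18.4 and 6.88 CPM in sham blood, 10.6 and 25.7 in tMCAO blood, with 13.5 and 15.1 in brain. Both groups of blood libraries enclosed the brain values, with a log2 difference to sham blood of 0.18 ± 0.61 (edgeR adjusted p = 0.851). Pcna was at 356 and 261, 242 and 561, and 207 and 238 CPM, a log2 difference of -0.47 ± 0.42 (edgeR adjusted p = 0.427); its brain libraries lay below all 4 blood libraries by a narrow margin.

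Of the enzymes of deoxynucleotide supply, Rrm2, Rrm1 and Tyms fell in brain and Tk1 did not pass. Rrm2, the small subunit of ribonucleotide reductase and the one whose amount follows the cycle, was at 135 and 59.1 CPM in sham blood, 101 and 118 in tMCAO blood, with 11.8 and 24.1 in brain, 5.39-fold lower than sham blood (edgeR adjusted p = 0.0121). Rrm1, the large subunit, was at 122 and 107, 104 and 93.2, and 33.4 and 47.4 CPM, 2.83-fold lower (edgeR adjusted p = 0.00788). Tyms, which makes thymidylate, was at 56.7 and 34.2, 44.2 and 90.6, and 16.8 and 18 CPM, 2.61-fold lower with an adjusted p of 0.0491 just inside the threshold (edgeR). In each of these genes the 4 blood libraries were all above the brain libraries. Tk1, the thymidine salvage kinase, has an exon that Afmid overlaps on the other strand. It was at 8.11 and 19.6 CPM in brain, which overlapped sham blood (29.5 and 15.7) and lay below tMCAO blood (23.1 and 23.6).

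Both cyclin E genes fell in brain. Ccne1 was at 4.61 and 6.12 CPM in brain, 4.07-fold below sham blood (edgeR adjusted p = 0.00775). Ccne2 was at 6.54 and 12.4 CPM, 3.98-fold below (edgeR adjusted p = 0.011), and Ints8 overlaps its exons on the other strand. Of the chromatin genes, Chaf1b, a subunit of the assembly factor that places histones behind the fork, was at 52.4 and 38.0 CPM in sham blood, 73.2 and 53.7 in tMCAO blood, with 18.9 and 26.2 in brain. Its groups did not overlap, and its log2 fold change to sham blood of -1.0 ± 0.34 did not pass (edgeR adjusted p = 0.0609). Its partner subunit Chaf1a and the DNA methylation cofactor Uhrf1 had 0.584 to 12.5 CPM over all libraries, and neither passed.

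**Figure D3:**
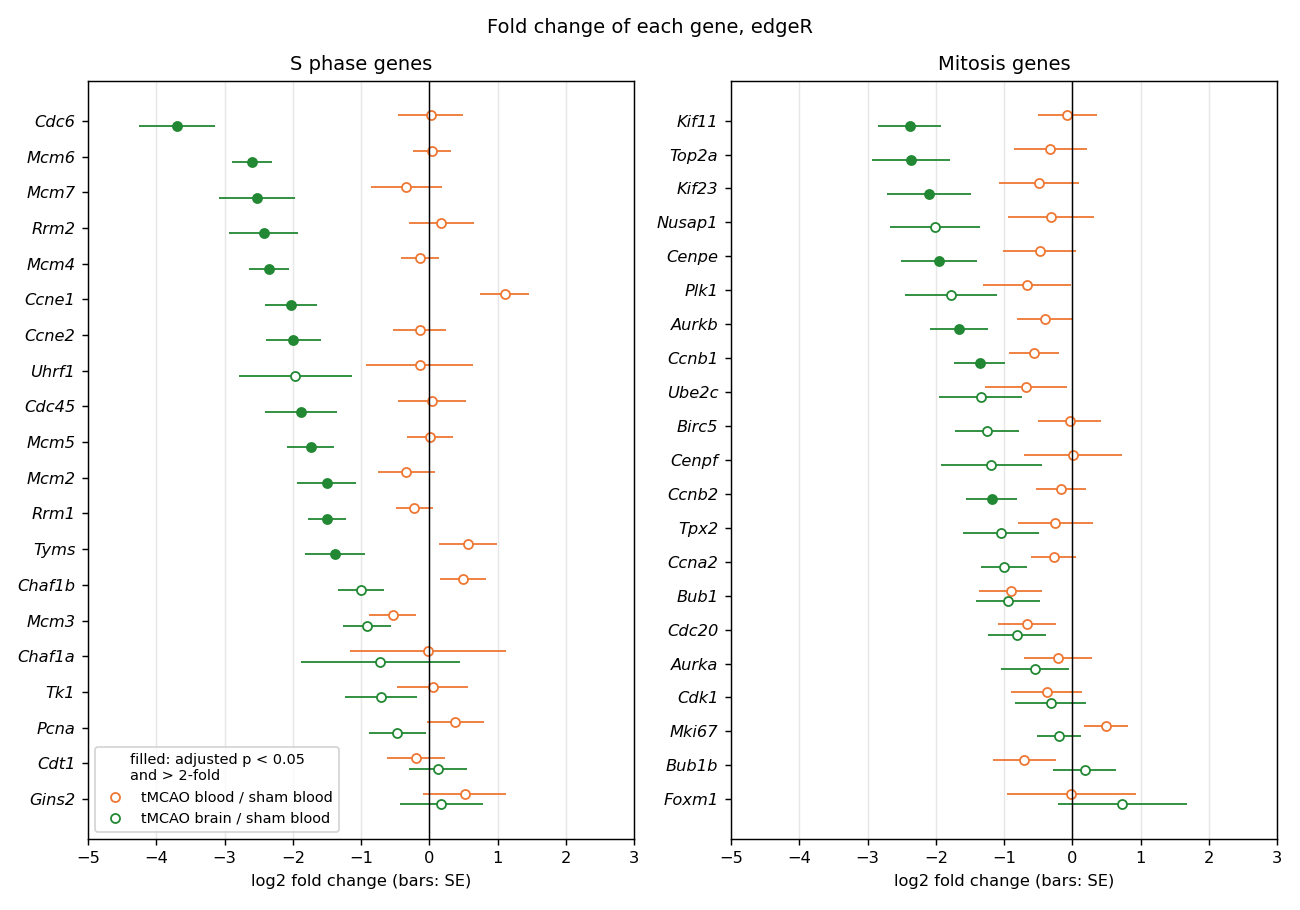
Log2 fold change (edgeR, TMM scaling; bars are SE, 2 libraries per group) of each gene in tMCAO blood and in tMCAO brain, each over sham blood, ordered by the brain value; filled points passed the test. Both comparisons share the sham libraries. In brain 12 S phase and 7 mitosis genes passed, all lower, with Cdc6 lowest at -3.70 and Kif11 lowest of the mitosis genes at -2.38, and none passed in blood; scaling on T cell genes gives values above 0 for all 41, as for nearly all genes, in brain.

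Of the mitosis genes, Top2a, Ccnb1, Ccnb2, Aurkb, Kif11, Kif23 and Cenpe fell in brain against sham blood. Kif11, the motor that pushes spindle poles apart, was at 35.1 and 23.8 CPM in sham blood, 26.0 and 30.04 in tMCAO blood, with 3.78 and 7.49 in brain. It was 5.22-fold lower in brain, a log2 fold change of -2.38 ± 0.46 (edgeR adjusted p = 0.00894). Top2a, the topoisomerase that untangles sister chromatids, was at 57.4 and 27.2, 46.2 and 21.3, and 6.17 and 10.2 CPM, 5.15-fold lower (edgeR adjusted p = 0.0202). For both genes all 4 blood libraries were above the brain libraries, and the blood groups overlapped.

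Kif23, a motor of the cleavage furrow midzone, was at 29.8 and 19.4 CPM in sham blood, 20.6 and 14.5 in tMCAO blood, with 2.67 and 8.77 in brain, 4.29-fold lower (edgeR adjusted p = 0.0388), and its brain libraries stood apart from each other. Cenpe was at 24.4 and 20.1 CPM in sham blood and 6.17 and 5.30 in brain, 3.87-fold lower (edgeR adjusted p = 0.0367). Aurkb, the kinase of the chromosomal passenger complex, was at 34.9 and 19.3, 18.9 and 22.3, and 7.37 and 9.68 CPM, 3.17-fold lower (edgeR adjusted p = 0.0254). Birc5, its partner in that complex, was at 92.0 and 63.8, 50.5 and 101, and 22.3 and 43.1 CPM, and did not pass (log2 fold change -1.25 ± 0.47, edgeR adjusted p = 0.0817), although its brain libraries were below all 4 in blood.

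The B cyclins, which activate Cdk1, were nearer to their blood levels. Ccnb1 was at 67.5 and 59.4 CPM in sham blood, 31.2 and 54.6 in tMCAO blood, with 19.8 and 29.6 in brain, 2.57-fold below sham blood (edgeR adjusted p = 0.0331). Ccnb2 was at 112 and 77.0, 67.9 and 101, and 31.9 and 51.4 CPM, 2.27-fold below (edgeR adjusted p = 0.0485). Cdk1 itself overlapped between all groups, at 31.7 and 15.7, 13.8 and 22.7, and 12.9 and 25.0 CPM. Its log2 difference to sham blood was -0.32 ± 0.52.

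Mki67 was at 20.2 and 18.4 CPM in brain, just below the sham libraries at 22.3 and 21.8, with a log2 difference of -0.20 ± 0.32 (edgeR adjusted p = 0.677). The checkpoint gene Bub1b was at 11.5 and 18.5 CPM in brain, overlapping sham blood at 16.7 and 9.80, with a log2 difference of 0.18 ± 0.46. Cdc20, the activator of the anaphase-promoting complex, has an exon that Elovl1 overlaps on the other strand. It was at 24.6 and 18.5, 13.6 and 13.6, and 8.84 and 15.8 CPM, and Bub1 was at 9.12 and 19.9 in brain. Neither passed (edgeR adjusted p = 0.19 and 0.171). The remaining mitosis genes (Ccna2, Aurka, Plk1, Cenpf, Tpx2, Nusap1, Ube2c and Foxm1) did not pass either; their log2 fold changes to sham blood ran from -2.01 for the spindle protein Nusap1 to 0.73 for the transcription factor Foxm1, which had at most 2.92 CPM in any library.

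The count of calls fell with fewer libraries, over all genes as well. Without the first sham library 3 S phase and 0 mitosis genes remained called lower against sham blood, and without the first brain library likewise 3 and 0, where 5.46% and 5.33% of all genes were called lower in place of 11.8%. The 3 were Cdc6, Mcm4 and Mcm6 both times, and these 3 were called in each of the 6 fits that left out a library. Without the second sham library 9 S phase and 3 mitosis genes were called, without the second brain library 8 and 3, against 5.92% and 6.26% of all genes. Without either tMCAO blood library 12 mitosis genes were called, against 13.9% and 15.5%. The second brain library was above the first for 31 of the 41 genes and for 18 of the 21 mitosis genes, where 50.6% of all genes were higher in the first, and it also had the higher microglia sum, 19911 against 8966 CPM. The part of these marker differences in the member levels was not tested.

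The third comparison was tMCAO brain with tMCAO blood, the same brain libraries against the other blood group. Under TMM scaling 12 S phase genes and 2 mitosis genes were lower in brain and 0 were higher, against 13.2% of all genes called lower and 20.4% called higher; scaling on T cell genes called all 41 higher, with 95.4% of all genes. The share of mitosis genes called lower, 9.52%, was under that of all genes. At an unadjusted p under 0.05, 21 of 41 were lower and 0 higher, against 20% and 25.8% of all genes, and DESeq2 and limma-voom called none higher. The median log2 fold change was -1.78 for S phase and -0.80 for mitosis genes, where that of all genes was 0.05. Both brain libraries were below both tMCAO blood libraries for 16 S phase and 12 mitosis genes, and for 31% of all genes.

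The S phase genes called here were Mcm4, Mcm5, Mcm6, Mcm7, Rrm1, Rrm2, Tyms, Cdc6, Cdc45, Chaf1b, Ccne1 and Ccne2. Cdc6 again had the lowest ratio (13.2-fold lower, edgeR adjusted p = 0.0029). Ccne1, highest in tMCAO blood of the groups, was 8.76-fold lower in brain (edgeR adjusted p = 0.00142), against 4.07-fold from sham blood. Mcm6 was 6.20-fold, Rrm2 6.09-fold and Mcm4 4.66-fold lower (edgeR adjusted p = 0.000928, 0.00844 and 0.00176). Tyms was 3.87-fold lower (edgeR adjusted p = 0.0148) and Chaf1b 2.81-fold lower (edgeR adjusted p = 0.0154). Mcm2 was 2.25-fold lower and did not pass (edgeR adjusted p = 0.0737).

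The 2 mitosis genes called were Kif11, 4.96-fold lower (edgeR adjusted p = 0.00891), and Top2a, 4.12-fold lower (edgeR adjusted p = 0.0298). The B cyclins and Aurkb did not pass against tMCAO blood: Ccnb1 was 1.74-fold lower, Ccnb2 2.02-fold lower and Aurkb 2.41-fold lower (edgeR adjusted p = 0.144, 0.0711 and 0.0553). Bub1b was the member with both brain libraries above both tMCAO blood libraries, 11.5 and 18.5 against 7.97 and 8.30 CPM, and its log2 difference of 0.89 ± 0.47 did not pass (edgeR adjusted p = 0.182). Without the first brain library 4 S phase genes (Ccne1, Cdc6, Mcm4, Mcm6) and 0 mitosis genes were called, against 5.88% of all genes called lower, and without the first tMCAO blood library 9 mitosis genes, against 16.4%. The brain comparisons share their brain libraries and are not independent of each other.

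Further genes of the same machinery, from lists chosen by role, are given with each comparison's own counts. Of 40 replication partners 20 fell in brain against sham blood and 19 against tMCAO blood, and 0 rose in either, under TMM scaling, where 11.8% and 13.2% of all genes fell; under T cell gene scaling all 40 were called higher in both, as were 95.0% and 95.4% of all genes. Dut, the dUTPase that keeps uracil out of DNA, was at 93.8 and 66.5 CPM in sham blood, 76.7 and 91.9 in tMCAO blood, with 7.74 and 7.95 in brain (log2 fold change to sham blood -3.35 ± 0.32, edgeR adjusted p = 0.00064). Cdc7, the kinase that fires origins, was at 24.4 and 28.1, 19.6 and 33.5, and 1.47 and 2.65 CPM, and Rpa2, a subunit of the single-strand binding protein, at 173 and 158, 314 and 295, and 16.5 and 26.8 CPM; both fell (edgeR adjusted p = 0.0024 and 0.00098). Hells, Tipin and Rfc5 also fell, by 2.34, 1.76 and 1.20 on the log2 scale.

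Under TMM scaling 17 of 38 mitosis partners fell and 1 was called higher against sham blood, and 16 and 1 against tMCAO blood. Of all genes 11.8% and 13.2% were called lower and 18.7% and 20.4% higher. T cell gene scaling called all 38 higher in both comparisons, with 95.0% and 95.4% of all genes. The condensin subunit Smc4 was at 704 and 847 CPM in sham blood, 375 and 642 in tMCAO blood, with 35.3 and 34.7 in brain (log2 fold change to sham blood -4.47 ± 0.37, edgeR adjusted p = 0.00041). Smc2, its partner in condensin, fell by 2.50 and the condensin subunit Ncapg by 2.83 on the log2 scale. Hmgb2, a chromatin protein that is abundant in cycling cells, was at 1296 and 1089, 985 and 1029, and 151 and 189 CPM. Racgap1, a partner of Kif23 in cytokinesis, fell by 3.07 on the log2 scale, and Sgol1, which guards cohesin at centromeres, by 3.17. The gene called higher was Espl1, which encodes separase, at 5.99 and 11.2 CPM in brain and at most 0.584 in blood. It had 0 to 11 counts in the blood libraries and passed the filter on low counts only through brain, where it is high, so no direction is read from its call; it was named after its values were seen.

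Genes that control G1 were called lower in brain at a share near that of all genes. Of 26 genes of G1 control and E2F, 4 (15.4%) fell and 1 (3.85%) was called higher in each brain comparison under TMM scaling, against 11.8% and 13.2% of all genes lower and 18.7% and 20.4% higher; under T cell gene scaling 24 were called higher against sham blood, 25 against tMCAO blood and 0 lower. Ccnd2, a D cyclin that T cells induce on activation, was at 274 and 296 CPM in sham blood, 162 and 417 in tMCAO blood, with 9.67 and 11.3 in brain (log2 fold change to sham blood -4.76 ± 0.51, edgeR adjusted p = 0.00095). Ccnd3 was at 312 and 343, 308 and 271, and 99.7 and 108 CPM and fell as well (edgeR adjusted p = 0.0032). Ccnd1, the D cyclin that lymphocytes hardly use, was at most at 0.616 CPM in any blood library and at 21.5 and 19.6 in brain. With 1 to 12 counts in the blood libraries it passed the filter on low counts only through brain, so no direction is read from its call. The pocket protein genes Rbl1 and Rbl2 fell by 1.82 and 1.63 on the log2 scale, and E2f7, a repressor of the E2F family, did not pass (edgeR adjusted p = 0.066).

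Of 17 CDK inhibitor and antiproliferative genes, 16 were tested, and 6 (37.5%) rose and 3 (18.8%) fell in each brain comparison under TMM scaling, beside the shares of all genes just given; under T cell gene scaling 15 rose against sham blood, 16 against tMCAO blood, and 0 fell. Cdkn1a, which encodes the CDK inhibitor p21, was at 8.0 and 17.2 CPM in sham blood, 1.34 and 0.526 in tMCAO blood, with 869.6 and 569 in brain. It rose in brain (log2 fold change to sham blood 5.84 ± 0.59, edgeR adjusted p = 0.00079). It was also the only gene of the 4 partner lists called in tMCAO blood against sham blood, where 0.821% of all genes were called lower. There it fell by 3.72 on the log2 scale (edgeR adjusted p = 0.046). That call was made in 8 of 18 fits, with adjusted p from 9.8e-09 by DESeq2 to 0.244 by edgeR on the blood libraries alone. It was lost with scaling by library size alone, limma, a replicate block, and without the second sham, the second tMCAO blood or either brain library (adjusted p = 0.126, 0.114, 0.159 and 0.149). Of 15 monocyte and macrophage genes, 6 were called lower and 0 higher in tMCAO blood, against 0.821% of all genes called lower. The other 9 were not called, and 4 of the 15 had a log2 fold change above 0. Among those called was Csf1r, at 8.0 and 16.0 CPM in sham blood and 0 CPM in each tMCAO blood library. Of 8 B cell genes tested, 4 were called lower and 0 higher, and all 8 had a log2 fold change below 0. The part of either list in the level of Cdkn1a was not tested. The stress genes Gadd45b, at 15.3 and 13.7, 13 and 6.08, and 169.7 and 296 CPM, and Gadd45g, which was at 75.7 and 81.3 CPM in brain and at most 9.89 in blood, rose too. Btg2 and Tob2, antiproliferative genes of 1 family, rose by 1.55 and 2.65 on the log2 scale, at 586 and 922 CPM for Btg2 in brain. Trp53, at 119.6 and 132, 109 and 113, and 37.1 and 39.4 CPM, fell. Microglia and monocyte genes were many-fold higher in the same brain libraries, as given above, and their part in these changes was not tested.

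**Figure D4:**
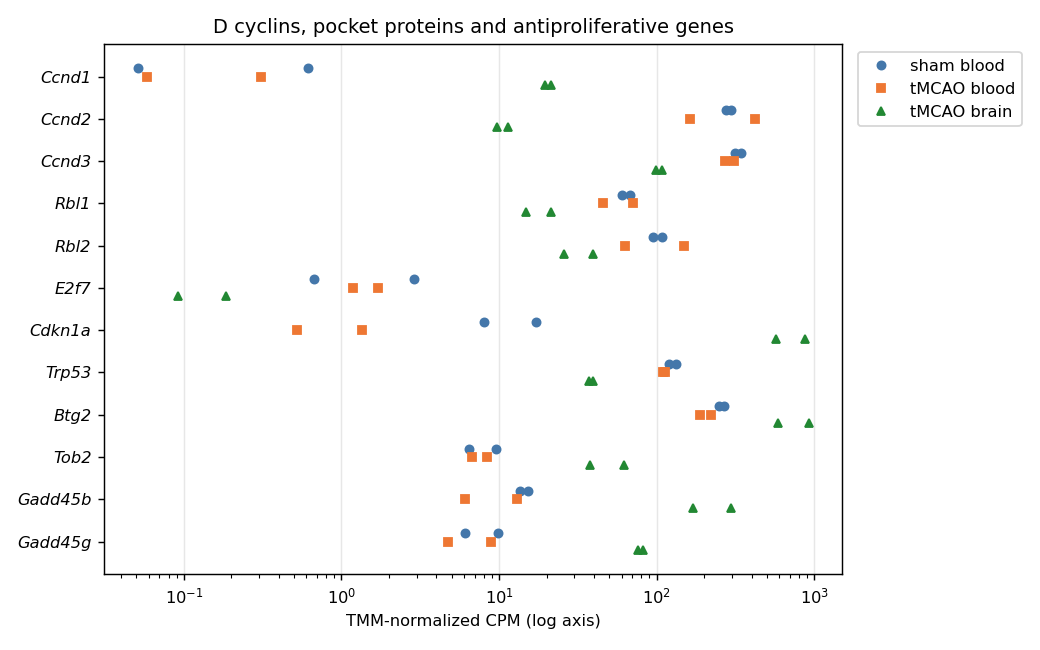
TMM-normalized CPM (log axis) of the 6 genes with the smallest p from the G1 control list and the 6 from the CDK inhibitor and antiproliferative list, with 1 point per library. Ccnd2 stood at 9.67 and 11.3 CPM in brain against 162 to 417 in blood, while Cdkn1a stood at 569 and 869.6 in brain against 0.526 to 17.2 in blood; these are levels under TMM scaling.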

How the data were processed

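RNA of 6 libraries (2 each of sham blood, tMCAO blood and tMCAO brain) was read as paired ends of 75 bp on a NextSeq 500 after SMART-Seq amplification and Nextera XT preparation. The authors checked the reads with FastQC, trimmed them, mapped them to GRCm38 (mm10) with TopHat and estimated abundance with Cufflinks; not given in the sources used here: FastQC and TopHat versions, and whether strand was used in counting. The deposited counts are raw reads per gene symbol. The deposited FPKM values are scaled to transcript length and mapped reads. Left out of the count table were 5 lines naming no gene (60.1% to 65.7% of reads) and 27 lines with dates for symbols. Of 24572 FPKM lines, 22283 with a value in every library and a single symbol were used.

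Counts were fitted with edgeR 4.0.16 (R 4.3.3): filterByExpr (minimum count 10, total 15; 12424 genes), TMM factors 0.780 to 1.21, quasi-likelihood test (glmQLFit, glmQLFTest) on all 6 libraries, so that groups share 1 estimate of spread, and Benjamini-Hochberg adjustment over all genes. Called means an adjusted p under 0.05 and over 2-fold. The SD of the log2 ratio between replicates was 0.819, 1.27 and 0.807 in the groups named above, so the shared estimate can be too small for tMCAO blood. Standard errors were obtained as |log2 fold change| divided by sqrt(F). No permutation test reaches 0.05 with 2 against 2. No molecular identifiers were counted, so amplified copies of 1 molecule enter as separate reads. Alternatives used DESeq2 1.42.0, limma 3.58.1 with voom, limma on log2(FPKM + 1) and log2(FPKM + 0.1), other scalings and filters, a replicate block and each library left out. The procedure was tested on simulated counts drawn with the same spread for every gene and group. That run does not show how the test performs at the unequal spread of these libraries. Exon overlaps were taken from GENCODE M21 (GRCm38), and 13 members have an exon overlapped by another gene. For 11 of them the overlap is on the other strand: Mcm7, Gins2, Cdc45, Tk1, Chaf1a, Ccne2, Ccna2, Cdc20, Plk1, Nusap1 and Ube2c.

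The members and lists were chosen with earlier results of these data known. Values in every library are given for members called in any comparison, the 5 of each class with the smallest p in each comparison and the 3 with the highest mean FPKM per class and group. Up to 6 genes with the smallest p are named from each partner list. One of the defining marker genes is not reported here.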

Additional observations from a re-analysis of the deposited data

How the results depend on the processing

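Of the settings tried, scaling on T cell genes, which sets those genes level across libraries, moved nearly all genes in brain alike: 20 S phase and 21 mitosis genes were called higher in both brain comparisons, with 95.0% and 95.4% of all genes, and the median log2 fold change of all genes moved by 7.13 and 7.28 to 7.26 and 7.33. The change of sign of the members is set by this shift, and 38 and 36 of the 41 lay below the median of all genes. That position hardly depends on a shift shared by nearly all genes, so it tests neither scaling. The log2 fold changes of the named genes whose sign turned were, against sham blood, Mcm2 5.61, Mcm3 6.22, Mcm4 4.77, Mcm5 5.38, Mcm6 4.52, Mcm7 4.66, Pcna 6.67, Rrm1 5.67, Rrm2 4.76, Tyms 5.75, Cdc6 3.39, Cdc45 5.23, Chaf1b 6.16, Ccne1 5.13, Ccne2 5.2, Mki67 6.93, Top2a 4.81, Ccnb1 5.81, Ccnb2 6.00, Cdk1 6.87, Cdc20 6.38, Bub1 6.27, Aurkb 5.49, Birc5 5.95, Kif11 4.81, Kif23 5.13, Cenpe 5.16 and Ube2c 5.81, and against tMCAO blood Mcm2 6.11, Mcm3 6.92, Mcm4 5.06, Mcm5 5.52, Mcm6 4.65, Mcm7 5.17, Pcna 6.43, Rrm1 6.04, Rrm2 4.74, Tyms 5.32, Gins2 6.94, Cdc6 3.54, Cdc45 5.34, Chaf1b 5.83, Ccne1 4.18, Ccne2 5.50, Mki67 6.58, Top2a 5.30, Ccnb1 6.52, Ccnb2 6.31, Cdc20 7.2, Bub1 7.33, Aurkb 6.04, Birc5 6.13, Kif11 5.03, Kif23 5.78, Cenpe 5.77 and Ube2c 6.62. The counts do not tell which scaling is right.

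In the remaining settings the called members were all lower in brain. An adjusted p under 0.01 left 5 S phase and 1 mitosis genes against sham blood and 6 and 1 against tMCAO blood. At that threshold 5.93% and 6.55% of all genes were called lower. The count of mitosis genes against sham blood was 13 by library size alone (which moved the median of all genes by -0.57), 11 by DESeq2 and 12 with only sham blood and brain in the fit. These settings called 21.8%, 13.6% and 17.4% of all genes lower, against 11.8% by edgeR with TMM scaling. Against tMCAO blood the count of mitosis genes was 11 by library size alone (median moved by -0.49), 7 by DESeq2, 1 by limma-voom and 6 by limma on FPKM with either pseudocount. Of all genes 23.0%, 14.3% and 12.3% were called lower by the first 3, and 21.3% and 21.7% by limma on log2(FPKM + 1) and log2(FPKM + 0.1). By edgeR with TMM scaling it was 13.2%. In tMCAO blood against sham blood limma on FPKM called 1 mitosis gene with either pseudocount, where 0.565% and 0.956% of all genes were called lower. That gene was Cdc20, which is listed at 0 FPKM in both tMCAO libraries despite its counts. The cause of the other shifts was not tested. Leaving out each library in turn gave 3 to 14 S phase and 0 to 12 mitosis genes against sham blood, 4 to 13 and 0 to 9 against tMCAO blood, and 0 of both between the blood groups. Other filters, DESeq2's size factors within edgeR and no fold minimum kept each count of calls within 1.5 times.

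Replicate numbers recur across groups in the labels. With the number as a block, 10 S phase and 5 mitosis genes were called against sham blood, 11 and 2 against tMCAO blood and 0 between the blood groups. The shares of all genes called lower there were 10.5%, 11.1% and 0.580%. The deviations of same-numbered libraries correlated at -0.023, -0.027 and 0.026 over 12424 genes, so the numbers were not taken as pairs. With 2 libraries a group, changes near the size of the replicate spread can be missed.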
